A study of Mus musculus with 6 samples.

Results

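The Hox genes are the 39 mouse homeobox genes whose symbols read Hoxa, Hoxb, Hoxc or Hoxd followed by a paralog number from 1 to 13. They were picked by symbol from 19893 symbols with a row in all 6 libraries, with no use of measured values, and each was read from its transcript with the highest mean count. RNA was sequenced from 7-day mammosphere cultures of MMTV-HER2/Neu mice on the FvB background. The mouse mammary tumour virus promoter of this line drives the Neu (ErbB2) oncogene in mammary epithelium, and stromal cells carried into a culture are host cells that it does not target. Early lesion (EL) spheres, 3 libraries, were grown from mammary glands at 14 to 18 weeks of age, before a tumour could be felt. Primary tumour (PT) spheres, 3 libraries, were grown from tumours of mice older than 20 weeks. Both groups carry the transgene, and no group without it enters the comparison. The labels do not tie libraries to animals, and a p-value here sets the group difference against a spread between libraries that may be technical.

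Hox proteins are transcription factors that bind DNA through a homeodomain and give cells their position along the head to tail and limb axes. The mouse genes lie in 4 clusters that arose by duplication, and genes with the same paralog number in different clusters are the closest relatives. Within a cluster all genes are read from the same strand, and low paralog numbers, at the 3′ end, are active in anterior parts of the embryo and high numbers, at the 5′ end, in posterior and distal parts, an order called collinearity. Adult cells keep part of this code, and cultured fibroblasts are known to hold the Hox pattern of the site they came from. In the mammary gland, Hoxa9, Hoxb9 and Hoxd9 together are needed for the epithelium to expand in pregnancy.

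The sharpest difference between neighbouring genes lay inside the Hoxa cluster on chromosome 6, on the minus strand, between Hoxa7 (52215623 to 52218573) and Hoxa9 (52223097 to 52227370), whose annotated ends are 4523 bases apart. The 250 bases before the annotated start of the 2 genes that flank this step, and of Hoxa5, the member with the highest PT level per length, are therefore shown. They are RefSeq sequences of GRCm38.p6, written 5′ to 3′ on the gene's strand, with every CG dinucleotide in capitals.
Hoxa5, chr6:52204588-52204837: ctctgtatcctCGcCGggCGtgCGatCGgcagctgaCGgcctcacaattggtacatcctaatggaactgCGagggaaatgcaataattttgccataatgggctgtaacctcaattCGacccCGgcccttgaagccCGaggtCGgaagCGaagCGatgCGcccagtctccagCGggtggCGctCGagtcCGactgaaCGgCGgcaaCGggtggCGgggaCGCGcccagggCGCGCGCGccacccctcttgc
Hoxa7, chr6:52218574-52218823: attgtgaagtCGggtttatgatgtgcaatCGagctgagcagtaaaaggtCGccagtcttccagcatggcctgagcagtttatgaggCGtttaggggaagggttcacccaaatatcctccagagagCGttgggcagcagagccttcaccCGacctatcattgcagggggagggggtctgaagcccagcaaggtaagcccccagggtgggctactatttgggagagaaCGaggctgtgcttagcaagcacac
Hoxa9, chr6:52227371-52227620: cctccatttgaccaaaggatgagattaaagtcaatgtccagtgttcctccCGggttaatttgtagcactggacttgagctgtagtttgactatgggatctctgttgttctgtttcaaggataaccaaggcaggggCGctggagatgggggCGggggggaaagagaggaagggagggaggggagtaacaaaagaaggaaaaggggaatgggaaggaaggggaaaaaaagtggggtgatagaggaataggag
The Hoxa5 window holds 28 CG dinucleotides, the Hoxa7 window 7 and the Hoxa9 window 3, against a median of 6 over 32851 promoter windows of the same length, of which 7.6% hold 28 or more and 37.8% hold 3 or fewer. The other Hoxa windows hold 6 (Hoxa2), 18 (Hoxa3), 24 (Hoxa6), 20 and 7 (Hoxa10), 13 (Hoxa11) and 35 (Hoxa13). A relation of this number to the Hox levels was not tested. The letters TTTATG, the core bound by caudal-type (Cdx) homeodomain proteins, occur in the Hoxa7 window in 2 places when both strands are read and in neither of the other 2 windows. They occur in 10.8% of all windows and in 5 of the 24 windows that the table holds for 22 Hox genes. A match of this kind is a description of the letters and not a site.

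The counts summed over the chosen transcripts ranged from 43278382 to 44166281 per EL library and from 47029670 to 51117359 per PT library. The table of EL replicate 1 is incomplete, but it holds a row for each of the 39 Hox symbols, so all Hox values rest on 6 libraries. Values are CPM, counts per 1000000 counts of a library scaled by TMM factors, and log2 fold changes are PT minus EL with standard errors (SE) from edgeR's quasi-likelihood test, adjusted over 13844 genes. The groups differed widely: edgeR called 80.7% of all genes, 40.8% lower and 39.9% higher in PT, and in the 5 complete libraries 79.2%, 40.2% lower and 39% higher. Scaling by library totals moved the fold changes up by a median of 0.25. Against a 2-fold minimum, a rule added after the data were seen, edgeR called 24.6%, 17.3% lower and 7.3% higher. Epithelial markers were summed at 2633 to 2699 CPM in EL and 8968 to 9352 in PT, while fibroblast markers were summed at 62180 to 66310 CPM in EL and 517 to 635 in PT. Epithelial transcripts were thus present in both groups, and those of fibroblasts were abundant in the EL libraries. The EL samples carry a tissue label that also names lung. Of 8 listed markers of lung epithelium, Sftpa1, Scgb1a1 and Nkx2-1 had 0 counts in all 6 libraries. Sftpc had 3, 0 and 6 counts in EL and 11, 11 and 10 in PT. Sftpb had 1 count in EL replicate 2 and 1 in PT replicate 1. Of the 3 that could be tested, Sftpd and Foxj1 were called higher in PT and Ager did not pass (median of the 3, 2.87). The summed list stood at 15.7 to 17.6 CPM in EL and 121 to 132 in PT. Whether lung cells were present was not tested.

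Hox transcripts were far more abundant in EL than in PT spheres, and what was left in PT came mostly from 1 end of 1 cluster. The 39 genes together had 7824, 7445 and 7365 counts in EL replicates 1 to 3 and 403, 390 and 432 in PT replicates 1 to 3. Their summed level was 188 ± 4.36 CPM in EL and 7.64 ± 0.296 in PT (mean ± SD, n = 3 each), 24.6-fold lower. The Hoxb, Hoxc and Hoxd clusters stood 72.9-fold, 75.1-fold and 82.6-fold lower in PT, at 57.4 ± 1.34, 84.9 ± 1.34 and 10.3 ± 0.663 CPM in EL and 0.788 ± 0.116, 1.13 ± 0.173 and 0.125 ± 0.0121 in PT. The Hoxa cluster stood 6.27-fold lower, at 35.1 ± 1.41 against 5.60 ± 0.0844 CPM. In these bulk libraries, fewer cells of a type and less RNA per cell cannot be told apart.

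The make-up of the Hox counts therefore differed between the groups. Hoxa2 to Hoxa7, a stretch chosen after its values were seen, gave 7.23%, 6.41% and 6.35% of all Hox counts in the EL libraries and 65.3%, 65.9% and 67.4% in the PT libraries. Hoxc genes gave 45.2 ± 0.352% in EL and 14.7 ± 1.72% in PT, and Hoxb genes 30.6 ± 0.382% and 10.3 ± 1.19%. The stretch itself was 2.48-fold lower in PT, at 12.5 ± 1.21 against 5.06 ± 0.217 CPM.

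**Figure D1:**
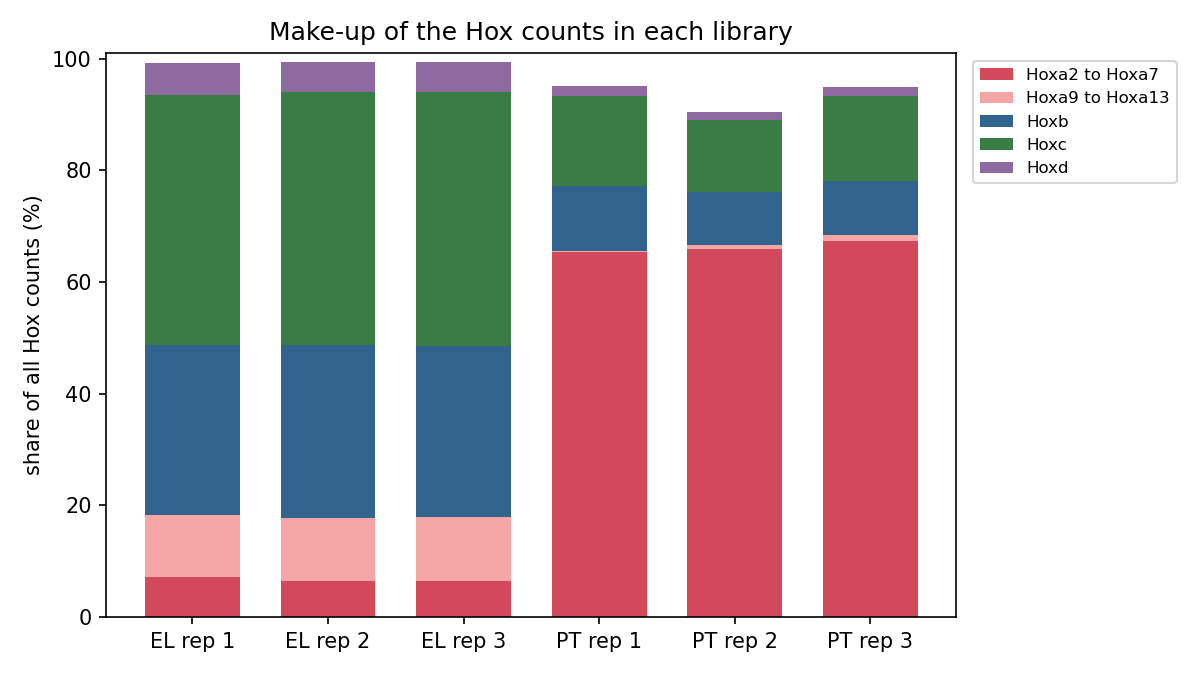
Share of all Hox counts (%) held by Hoxa2 to Hoxa7, Hoxa9 to Hoxa13, and the Hoxb, Hoxc and Hoxd clusters in each of the 6 libraries, 1 stacked bar per library. Hoxa2 to Hoxa7 hold 6.35% to 7.23% in the EL bars and 65.3% to 67.4% in the PT bars. Bars end below 100% because a remaining share is not shown.

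Of the 39 genes, 33 had a count in at least 1 library, 28 passed the filter on low counts and were tested, and 26 of these were called lower in PT and 0 higher, against the 40.8% of all genes called lower. The same 0 was found by DESeq2 and limma-voom, and 0 Hox genes had an unadjusted edgeR p under 0.05 with a higher PT level. Every PT library lay below every EL library for 30 of the 39 genes, against 41.7% of all genes tested, and in the opposite order for 0, against 41%. The 39 include 11 genes that were not tested, while the shares over all genes cover tested genes only. Hoxa11, Hoxc13 and Hoxd10 are among the 30 and were not tested. Most tested members passed the filter through their EL counts alone and so had to differ. The members with at least 10 counts in every library of both groups include Hoxa3 to Hoxa7, Hoxb3, Hoxc6 and Hoxc8. The median log2 fold change was -5.96 over the 28 tested members, or -5.78 with the genes that had 0 PT counts placed at their bound, beside 0.00 over all genes tested. The 6 genes with 0 counts in every library were Hoxa13, Hoxc12, Hoxd1, Hoxd11, Hoxd12 and Hoxd13, and a count of 0 over a group allows up to 3 counts over that group (counting error only).

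Hoxa2, Hoxa3 and Hoxa4 were moderately lower in PT. Hoxa2, the selector gene of branchial arch skeleton, was at 0.737, 0.655 and 0.747 CPM in EL replicates 1 to 3 and 0.156, 0.206 and 0.234 in PT replicates 1 to 3 (log2 fold change -1.82, SE 0.28). Hoxa3, needed for thymus and parathyroid, was at 5.08, 4.15 and 4.09 CPM in EL and 0.956, 0.693 and 1.10 in PT (-2.27, SE 0.17). Hoxa4, a gene of the neck region, was at 1.94, 2.27 and 2.22 CPM in EL and 0.429, 0.300 and 0.270 in PT (-2.68, SE 0.22). All 3 were called lower by edgeR, with adjusted p between 5.57e-08 for Hoxa3 and 5.14e-05 for Hoxa2, and every PT library lay below every EL library for each. Antisense exons cover 25.5% of the exonic bases of Hoxa3 and 16% of those of Hoxa4, and without a stated strand setting their reads cannot be told apart from those of the genes.

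Hoxa5, Hoxa6 and Hoxa7 differed least. Hoxa5, a regulator of lung and trunk development that is known in breast cells as an activator of p53, was at 1.89, 2.06 and 1.72 CPM in EL and 1.56, 1.52 and 1.51 in PT. The PT values lay just below the EL values, and the log2 fold change of -0.31 (SE 0.15) did not pass (edgeR adjusted p = 0.0747). It was -0.06 with library totals. Hoxa6, its neighbour 270 bases away, was at 0.761, 0.478 and 0.698 CPM in EL and 0.644, 0.562 and 0.467 in PT, so the groups overlapped (-0.22, SE 0.26; edgeR adjusted p = 0.449). Its counts were 78 over EL and 89 over PT, which gives an EL to PT ratio of 1.17 with an exact 95% interval of 0.849 to 1.60 for counting error alone. Its sign turned with library totals (0.028). Hoxa7, which acts in trunk patterning, was at 3.49, 2.39 and 2.19 CPM in EL and 1.39, 1.54 and 1.65 in PT. It was called lower by edgeR (-0.82, SE 0.19; adjusted p = 0.00132) but not against a 2-fold minimum. The value was -0.58 without EL replicate 1, the library with the highest level, and -0.57 with library totals. None of the exonic bases of Hoxa5 and Hoxa6 overlap an annotated antisense exon, and 28.8% of those of Hoxa7 lie under the antisense RNA Hoxaas3, which had 12 and 8 counts in EL replicates 2 and 3 and 8, 2 and 4 in PT.

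Past Hoxa7 the PT level dropped to single reads. Hoxa9, a target of MLL fusions in leukaemia and a regulator of blood stem cells, was at 9.75, 7.43 and 8.25 CPM in EL and had 1 count in each PT library. Its EL to PT ratio was 454 (exact 95% interval 155 to 2203, counting error alone). Hoxa10, known for its part in uterine receptivity, had 467, 533 and 514 counts in EL against 0, 2 and 3 in PT, and the EL to PT ratio was 403 (interval 172 to 1242). Its fitted log2 fold change of -8.54 became -9.16 without PT replicate 3. Hoxa11, a gene of forearm and uterus, had 8, 14 and 10 counts in EL, 0 in PT, and was not tested. It was at least 14.2-fold lower in PT, taking 3 counts over the PT group as the floor. Per length of exon, Hoxa9 and Hoxa10 thus stood in EL above every one of Hoxa2 to Hoxa7, and in PT below every one of them.

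**Figure D2:**
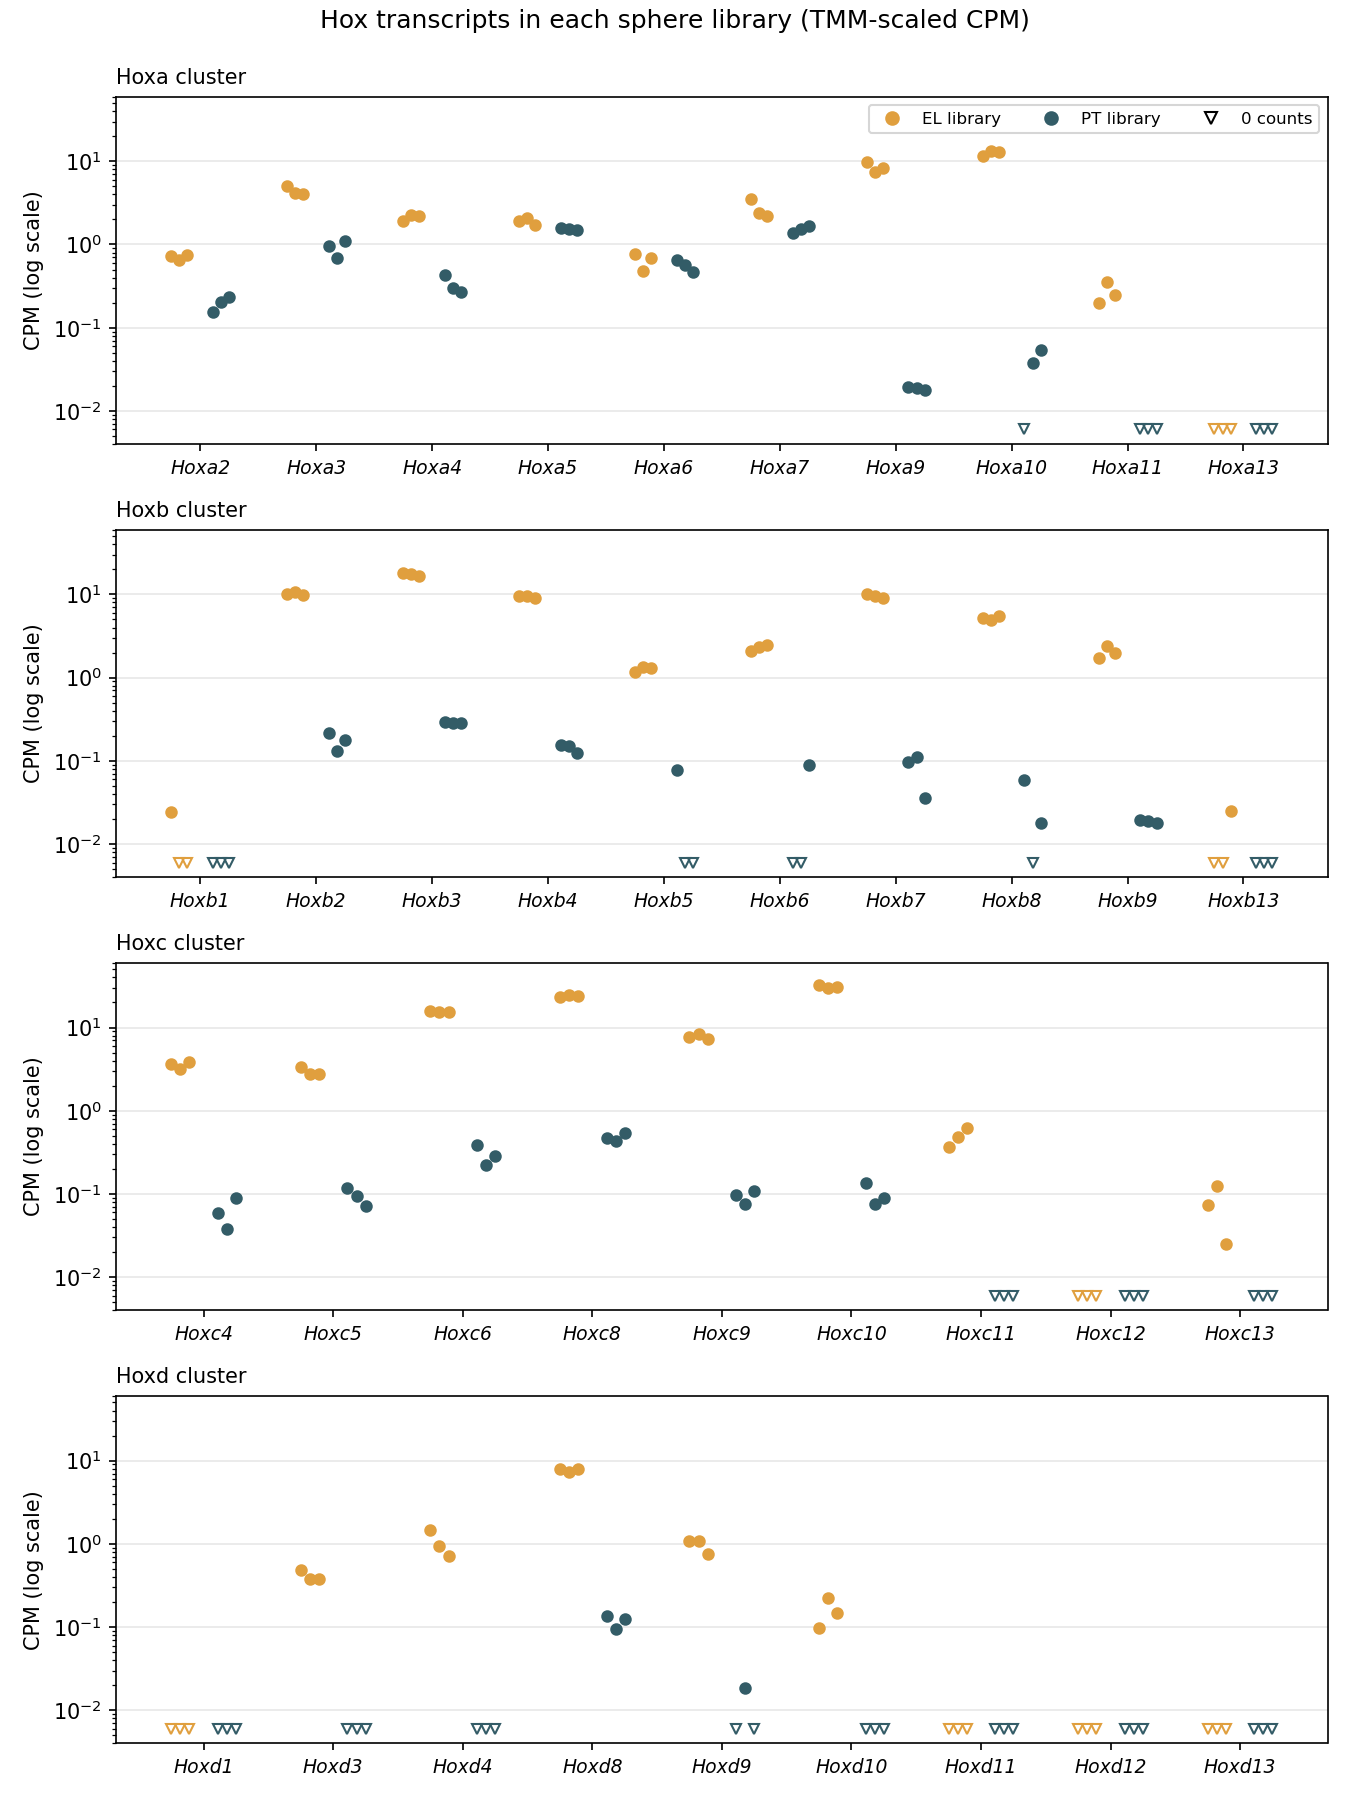
CPM (log axis) of Hox genes in each library, 1 panel per cluster in order of paralog number, with EL libraries in orange and PT libraries in dark teal. Filled points are libraries with counts and open triangles at the bottom are libraries with 0 counts. The 2 groups lie side by side for Hoxa5 and Hoxa6 and are far apart for Hoxa9, Hoxa10 and the better counted members of the other 3 clusters.

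Every tested Hoxb gene fell. Hoxb2, Hoxb3 and Hoxb4, anterior members that act in the hindbrain and, for Hoxb4, in blood stem cell expansion, kept a low but countable PT level. Hoxb3 was at 18.3, 17.6 and 16.6 CPM in EL and 0.293, 0.281 and 0.287 in PT (log2 fold change -5.92, SE 0.12; edgeR adjusted p = 5.58e-14). Hoxb2 was at 10.1, 10.7 and 9.82 CPM in EL and 0.215, 0.131 and 0.180 in PT (-5.84, SE 0.16), and Hoxb4 at 9.58, 9.47 and 9.07 and at 0.156, 0.150 and 0.126 (-6.00, SE 0.16). The 3 neighbours thus changed by similar amounts, with no test of the differences between them. Antisense exons of Hoxb3os cover 58.5% of the exonic bases of Hoxb2 and 70.5% of those of Hoxb3, and none of those of Hoxb4 are covered.

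Toward the 5′ end of the cluster, PT counts came down to a few reads. Hoxb7, which is overexpressed in part of human breast cancers, was at 10.1, 9.44 and 9.07 CPM in EL and had 5, 6 and 2 counts in PT (-6.83, SE 0.20). Hoxb8, a gene that holds myeloid progenitors immature, had 213, 195 and 220 counts in EL against 3, 0 and 1 in PT, and the EL to PT ratio was 209 (interval 81.1 to 769). Its log2 fold change was -7.56 with all libraries and -8.77 without PT replicate 1. Hoxb9, a mammary and thoracic gene, had 70, 96 and 80 counts in EL and 1 in each PT library (ratio 109, interval 36.9 to 532). Hoxb5 and Hoxb6, genes of trunk and gut, had lower EL levels, with 48, 54 and 53 counts for Hoxb5 and 84, 93 and 100 for Hoxb6. The 4 PT counts of Hoxb5 all came from PT replicate 1 and the 5 of Hoxb6 all from PT replicate 3. Their ratios were 51.5 (interval 19.7 to 192) and 73.7 (interval 31.2 to 229), and leaving out that 1 library moved Hoxb5 from -5.54 to -8.89 and Hoxb6 from -6.09 to -9.69 on the log2 scale. The limma-voom value of Hoxb6 was -6.79. Hoxb1 and Hoxb13, the ends of the cluster, had 1 count each, both in EL.

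The highest Hox transcripts of the EL spheres were in the Hoxc cluster. Hoxc10, a posterior gene of lumbar spinal cord that also marks fat of the hind body, was at 32.3, 29.98 and 30.3 CPM in EL and 0.137, 0.0749 and 0.0898 in PT (log2 fold change -8.23, SE 0.13; edgeR adjusted p = 4.14e-15). Hoxc8, a thoracic gene, was at 22.9, 24.9 and 23.6 CPM in EL and 0.468, 0.431 and 0.539 in PT (-5.62, SE 0.10). Hoxc6, also thoracic and close to the level of forelimb and mammary buds, was at 15.8, 15.2 and 15.2 CPM in EL and 0.390, 0.225 and 0.287 in PT (-5.67, SE 0.13). The EL to PT ratios of the counts of Hoxc10 and Hoxc8 were 309 (exact 95% interval 190 to 542) and 49.6 (interval 39.5 to 63.0). These intervals cover counting error only, and the difference between the 2 genes was not tested.

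Hoxc9, a repressor of Hox genes of more anterior motor neurons, was at 7.71, 8.41 and 7.20 CPM in EL and 0.0975, 0.0749 and 0.108 in PT (-6.34, SE 0.19). Hoxc4, at the anterior end, was at 3.61, 3.15 and 3.81 CPM in EL and 0.0585, 0.0375 and 0.0898 in PT (-5.76, SE 0.26). Its neighbour Hoxc5 was at 3.39, 2.79 and 2.74 CPM in EL and 0.117, 0.0936 and 0.0719 in PT (-4.95, SE 0.25). Hoxc11, a hindlimb gene, had 15, 19 and 25 counts in EL and 0 in PT, at least 26.2-fold lower. Hoxc13, known for its part in hair and nail, had 3, 5 and 1 counts in EL, 0 in PT, and was not tested.

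The Hoxd cluster had the lowest summed level. Hoxd8, its 1 member with counts in every PT library, was at 7.96, 7.33 and 7.92 CPM in EL and 0.137, 0.0936 and 0.126 in PT (log2 fold change -6.00, SE 0.18; edgeR adjusted p = 2.59e-12). Hoxd9, a limb and mammary gene, had 44, 43 and 30 counts in EL and 1 count in PT, in replicate 2 (ratio 156, interval 27.4 to 6197). Its fitted value moved from -6.77 to -8.47 without that library. Hoxd4 and Hoxd3, anterior members, had 59, 37 and 29 counts and 20, 15 and 15 counts in EL against 0 in PT, and were at least 55.4-fold and 22.2-fold lower. Hoxd10, a gene studied as a suppressor of breast cancer cell migration, had 4, 9 and 6 counts in EL, 0 in PT, and was not tested. For members with 0 or 1 PT counts the fitted value also moved with the method: limma-voom gave -6.75 for Hoxd4, -5.50 for Hoxd3, -6.17 for Hoxd9 and, in the Hoxc cluster, -5.71 for Hoxc11, where edgeR gave -8.60, -7.29, -6.77 and -7.53.

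Set out by paralog number, the change was not the same for relatives in different clusters. For paralogs 5 to 7 the Hoxa copies lay between -0.82 and -0.22, while Hoxb5, Hoxc5, Hoxb6, Hoxc6 and Hoxb7 lay between -6.83 and -4.95. At paralog 4, Hoxa4 stood at -2.68 beside -6.00 for Hoxb4 and -5.76 for Hoxc4. At paralog 9 the EL to PT ratio of counts was 454 (interval 155 to 2203) for Hoxa9 beside 109 (36.9 to 532) for Hoxb9, 83.1 (50.1 to 149) for Hoxc9 and 156 (27.4 to 6197) for Hoxd9, so the interval of Hoxa9 overlaps those of Hoxb9 and Hoxd9. At paralog 10 the ratio was 403 (172 to 1242) for Hoxa10 and 309 (190 to 542) for Hoxc10, with overlapping intervals. Summed over clusters, the level of paralogs 9 was 140.5-fold lower and of paralogs 10 was 333-fold lower in PT, against 29.2-fold, 18.6-fold, 29.8-fold, 3.73-fold, 20.6-fold, 7.62-fold and 59.0-fold for paralogs 2 to 8 in turn. The Hoxa copies weigh heavily on these sums. In PT, Hoxa5 gave 1.53 of the 1.65 CPM of paralogs 5, and Hoxa7 gave 1.52 of the 1.61 CPM of paralogs 7. Paralogs 1 to 7 of Hoxb, Hoxc and Hoxd alone were 61.2-fold lower in PT. Over all genes tested, 9.38% had fitted changes below -3 and 4.9% below -5. The 21 tested members of Hoxa9 to Hoxa13, Hoxb, Hoxc and Hoxd all lay below -3, but 18 of them had under 10 counts in a PT library and passed the filter through EL, so nothing is read from that count. These values were compared side by side, with no test of the difference between genes.

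**Figure D3:**
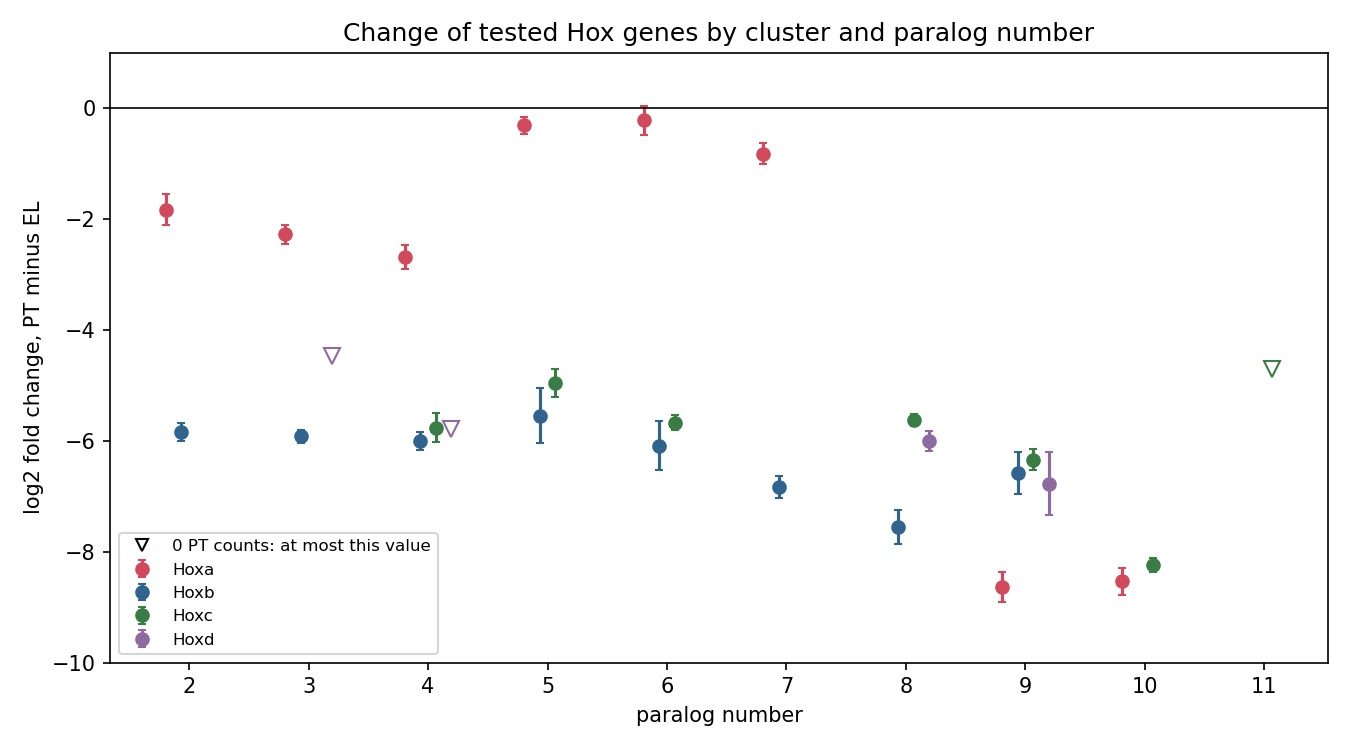
Log2 fold change (PT minus EL) of tested Hox genes against paralog number, coloured by cluster. Points with bars are edgeR values ± SE, and open triangles mark genes with 0 PT counts at the bound set by 3 counts. Hoxa2 to Hoxa7 lie between -2.68 and -0.22 and all points with bars in the other clusters, and Hoxa9 and Hoxa10, at -4.95 or below.

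Per length the order of the levels changed from one group to the other. On the scale of CPM per kilobase of exon, EL spheres had Hoxc10 highest (16.2 ± 0.652), then Hoxc8 (12.7 ± 0.517), Hoxc6 (9.72 ± 0.217), Hoxb7 (7.40 ± 0.424) and Hoxb2 (6.25 ± 0.273). PT spheres had Hoxa5 highest (0.814 ± 0.0146), then Hoxa7 (0.759 ± 0.0669), Hoxa6 (0.638 ± 0.101) and Hoxa3 (0.353 ± 0.0790). In PT the ranges of Hoxa5 and Hoxa7 over the 3 libraries overlapped, as did those of Hoxa7 and Hoxa6. In EL, Hoxa5, Hoxa7 and Hoxa6 ranked 19, 17 and 21 of the 39. The highest member outside Hoxa in PT was Hoxc8, at 0.257 ± 0.0294 CPM per kilobase. Hoxc10, the highest in EL, ranked 15 in PT.

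Markers of cell types moved in both directions. Over all genes tested, 40.8% were called lower and 39.9% higher in PT, and the counts of markers stand beside these shares. Each of the 10 fibroblast markers was called lower in PT. Their median change was -6.39, beside 0.00 over all genes tested. All 10 endothelial markers were lower too (median -5.67; 279 to 302 CPM in EL and 6.59 to 7.42 in PT), as were the 7 pericyte and smooth muscle markers (median -3.95; 477 to 491 and 124 to 132 CPM; 6 with library totals) and the 3 tested adipocyte markers (median -3.26; 370 to 440 and 32.3 to 40.8 CPM). All 10 epithelial markers were higher (median 1.54). No fibroblast or endothelial marker was at 0 in a whole group, and Adipoq and Plin1 were at 0 in PT. Of 6 basal epithelial markers 4 were higher and 2 lower (median 0.84; 530 to 540 and 1293 to 1364 CPM), and of 7 macrophage markers 6 were higher (median 2.51; 62.4 to 80.7 and 155 to 180 CPM).

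The same Hox sums were set against the marker sums, as a description: the sets were chosen after their values were seen, and the ratios restate their different fold changes on another scale. The summed Hoxb, Hoxc and Hoxd level was 2.38 ± 0.0746 per 1000 CPM of fibroblast markers in EL and 3.63 ± 0.746 in PT. For Hoxa2 to Hoxa7 the same ratio was 0.195 ± 0.0142 in EL and 8.94 ± 0.870 in PT. For Hoxa9 to Hoxa13 it was 0.332 ± 0.00894 and 0.0841 ± 0.0406. The fibroblast sum weighs each marker by its level. In EL, Col1a1 stood at 19010 CPM and Fbln2 at 6885, against 1074 for Dcn and 402 for Pdgfra. The log2 fold changes of single markers differed, such as -5.69 for Pdgfra and -7.21 for Dcn, so these ratios depend on the marker used. Over the endothelial markers, the Hoxb, Hoxc and Hoxd ratio lay the other way, at 527 ± 18.6 in EL and 294 ± 40.3 in PT, while Hoxa2 to Hoxa7 stood at 43.1 ± 2.77 and 729 ± 23.5 and Hoxa9 to Hoxa13 at 73.5 ± 2.55 and 7.02 ± 3.65. Per 1000 CPM of epithelial markers, Hoxa2 to Hoxa7 stood at 4.71 ± 0.495 in EL and 0.553 ± 0.0348 in PT, and Hoxb, Hoxc and Hoxd at 57.4 ± 1.47 and 0.223 ± 0.0341. The part of the cell make-up in the Hox differences was not tested.

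**Figure D4:**
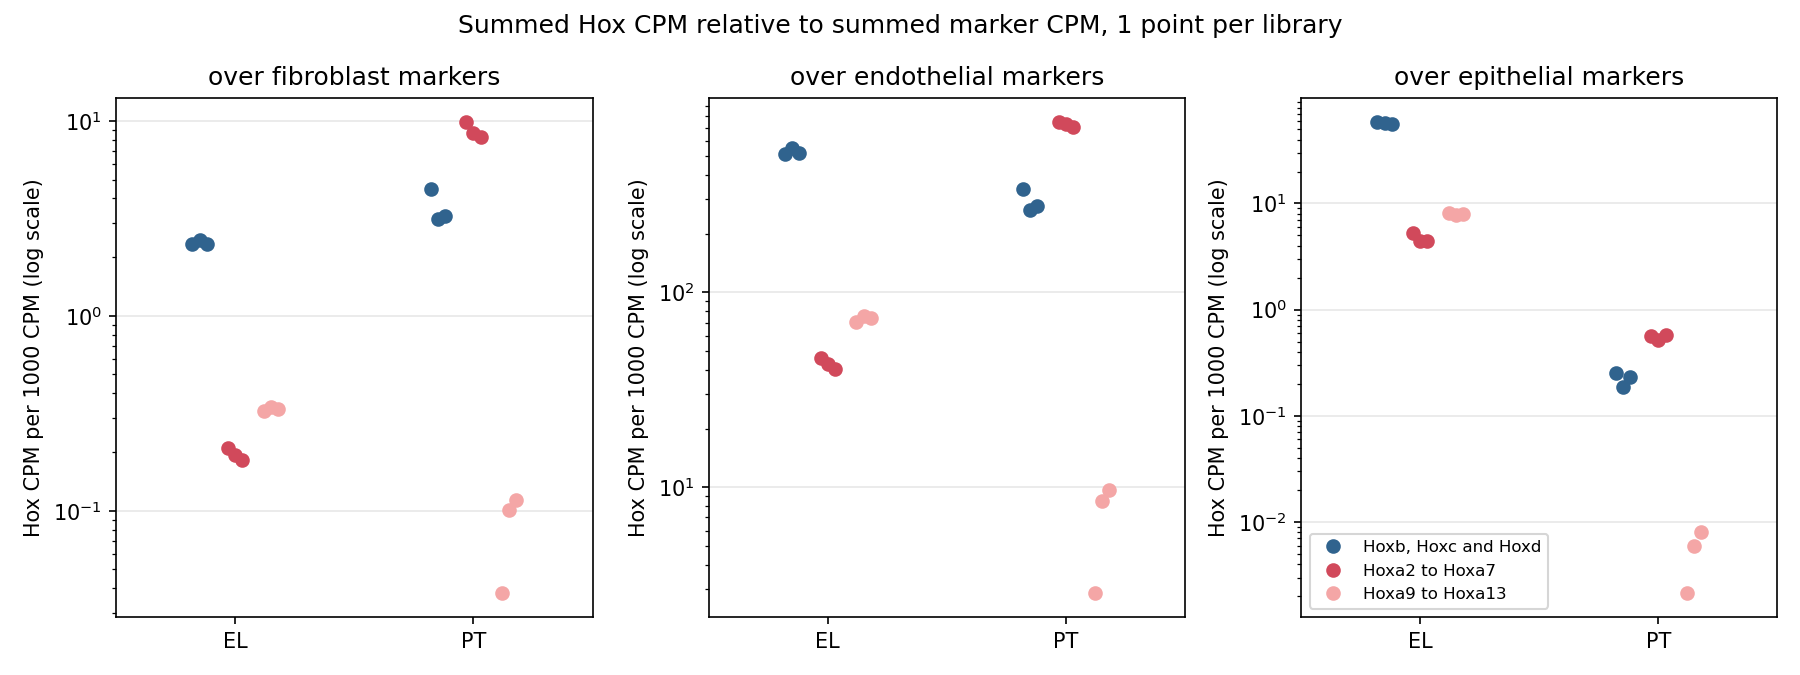
Summed CPM of 3 sets of Hox genes per 1000 CPM of fibroblast (left), endothelial (middle) and epithelial markers (right), log axes, 1 point per library. Each marker weighs in its sum by its level. On the left, Hoxb, Hoxc and Hoxd lie between 2.32 and 4.49 in all 6 libraries, while Hoxa2 to Hoxa7 lie between 0.181 and 0.210 in EL and between 8.24 and 9.92 in PT.

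Hox proteins bind DNA with partners of the TALE homeodomain class, the Pbx, Meis and Pknox (Prep) proteins. Of 9 such genes, 5 were called lower and 3 higher in PT by edgeR, with a median of -0.48. That share is close to the 80.7% of all genes called in either direction (40.8% lower, 39.9% higher), as are those of the chromatin regulators and inducers below. Meis2 had 690, 668 and 793 counts in EL and 11, 17 and 28 in PT, a fitted change of -5.66 (SE 0.16), and Pknox2 had 795, 708 and 683 in EL and 59, 72 and 70 in PT (-3.85, SE 0.10). Meis1, the partner of Hoxa9 in leukaemia, was at 510, 439 and 476 counts in EL and 99, 103 and 120 in PT (-2.56, SE 0.10), and Pbx3 stood at -1.69 (SE 0.09). Meis3 did not pass (24.9 ± 0.546 and 24.2 ± 0.720 CPM; edgeR adjusted p = 0.431). Meis3 was named after its values were seen. With library totals 4 genes were higher and 5 lower. The fibroblast and endothelial markers above were lower in the same libraries, and a relation of the cofactors to them was not tested.

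**Figure D5:**
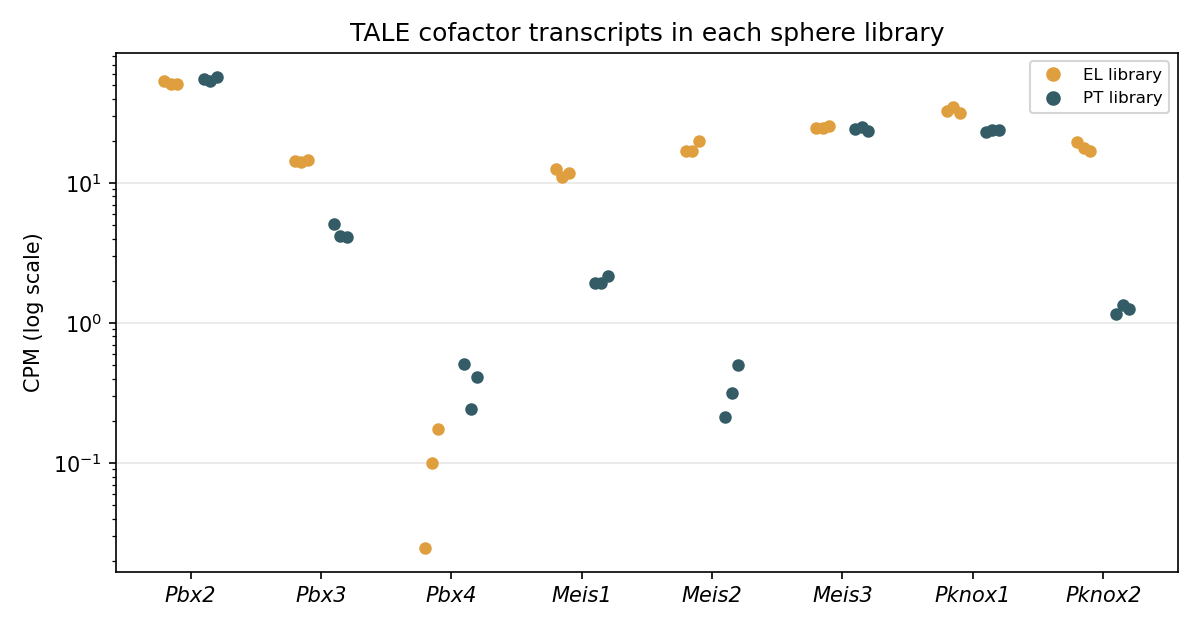
CPM (log axis) of TALE cofactor genes in each library, EL in orange and PT in dark teal. Meis2, Pknox2, Meis1 and Pbx3 are lower in the PT libraries, and Pbx2 and Meis3 lie close together in both groups.

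Polycomb complexes keep Hox clusters silent through H3K27 methylation, and Trithorax (MLL) complexes keep them active. Of 15 Polycomb genes, 10 were called higher and 2 lower in PT (median 0.32), against 39.9% and 40.8% of all genes. The chromobox genes Cbx7 and Cbx2 were up by 1.25 and 0.99 on the log2 scale and the methyltransferase gene Ezh1 by 0.84. Its paralog Ezh2 stood at 38.4 ± 2.19 CPM in EL and 39.3 ± 0.342 in PT and did not pass (edgeR adjusted p = 0.522). Rnf2, the catalytic ring finger subunit, was lower (-0.44, SE 0.04). Ezh2 and Rnf2 were named after their values were seen. Of 10 Trithorax-side genes, 7 were higher and 1 lower (median 0.22; 39.9% and 40.8% of all genes), 1 of them, Dot1l, tested in the 5 complete libraries; Kdm6a, Kmt2b, Ash2l and Dot1l stood at 0.42, 0.40, 0.35 and 0.21, and Men1 was lower (-0.28). These changes are of the size of the scaling shift: with library totals 13 Polycomb genes were higher and 2 lower, and of the 9 Trithorax-side genes in all 6 libraries 8 were higher and 0 lower, against 6 and 1 with TMM factors.

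Among genes that induce Hox transcription, the caudal genes were all but silent. Cdx1 had 4, 1 and 2 counts in EL and 0 in PT, Cdx2 had 2 counts in PT replicate 1 and 0 elsewhere, and Cdx4 had 1 count in EL and 2 in PT. Of the 5 tested genes of this list 3 were lower and 1 higher (median -0.30; 40.8% and 39.9% of all genes), and with library totals 2 and 2. The retinoic acid receptor genes went different ways: Rara stood at -0.69 (SE 0.04), Rarg at -0.30 (SE 0.03) and Rarb at 0.51 (SE 0.08). Gdf11, a ligand that sets the switch to posterior Hox genes in the embryo, had 513, 425 and 435 counts in EL and 64, 56 and 44 in PT (-3.47, SE 0.14).

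The tested genes that lie beside the clusters but are no Hox genes, up to 910.4 kilobases away, did not share the large falls of Hoxb, Hoxc and Hoxd. Of 18 such genes tested, the changes ran from -2.29 for Skap1, beside Hoxb, to 1.19 for Calcoco1, beside Hoxc. Skap1, 96.3 kilobases from Hoxb1, was itself scarce, with 11, 11 and 16 counts in EL and 2, 2 and 6 in PT. Beside Hoxa, Tax1bp1, Hibadh and Skap2 were higher (0.40, 0.37 and 0.17) and Snx10 did not pass. Beside Hoxd, Mtx2, 60.7 kilobases away, stood at -0.14, Lnp, at 88.8 kilobases, at -0.51 and Atf2, at 775.5 kilobases, at 0.45, against -6.00 for Hoxd8. Of the 4 genes beside Hoxa 3 were higher and 0 lower (median 0.27), beside Hoxb 2 and 2 of 4 (-0.09), beside Hoxc 2 and 3 of 5 (-0.26) and beside Hoxd 1 and 3 of 5 (-0.14). Over all genes tested, 39.9% were called higher and 40.8% lower. With library totals the counts were 4 and 0, 2 and 2, 2 and 1, and 3 and 2, and the medians beside Hoxb and Hoxd turned positive (0.16 and 0.11). The even-skipped genes at the cluster ends, Evx1 and Evx2, had 3 and 0 counts, all in EL. They lie 52.6 and 6.7 kilobases from the Hoxa and Hoxd clusters and, like Ttll6 at 28.1 kilobases from Hoxb, were not tested.

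The noncoding RNAs of the clusters were scarce in these polyadenylated libraries, and their rows are present in 5 libraries. None of the 8 listed RNAs with a row passed the filter. Gm53, in the Hoxb cluster, had 9 and 8 counts in EL replicates 2 and 3 and 0 in PT, Hoxa11os 16 and 2 and 0, and Hotair, in the Hoxc cluster, 2 and 1 and 0. The clusters also carry microRNA genes in matching places, which is why their mature sequences are shown, from RefSeq (GRCm38.p6), with the seed (bases 2 to 8) in capitals.
mmu-miR-10a-5p, Hoxb cluster: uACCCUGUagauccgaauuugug
mmu-miR-10b-5p, Hoxd cluster: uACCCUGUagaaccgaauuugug
mmu-miR-196a-5p, Hoxb and Hoxc clusters: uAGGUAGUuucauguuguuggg
mmu-miR-196b-5p, Hoxa cluster: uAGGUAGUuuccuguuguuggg
The miR-10 and miR-196 families each share a seed. Mir196b, which lies between Hoxa9 and Hoxa10, had 6 and 4 counts in EL replicates 2 and 3 and 0 in all PT libraries, and Mir196a-1 had 3 and 2 and 0. Mir10a had 2 counts in EL replicate 2 and Mir10b and Mir196a-2 had 0 throughout. These are reads over the hairpin rows of polyadenylated libraries, and mature microRNAs were not measured.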

How the data were processed

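A total of 6 RNA-seq libraries, 3 EL and 3 PT, were analysed. The deposited files hold raw read counts for RefSeq transcripts, as the authors made them. The submitters' processing notes name the tools featureCounts, DESeq2 and STAR and the builds hg19 and mm10, without versions, and the strand setting is not given in the sources used here. For EL replicate 1 the table breaks off after 27664 of 33068 rows. Its absent Hox row is a transcript of Hoxd11 with a further row, so the planned 5-library test applied to no Hox gene. For each symbol the transcript with the highest mean count was kept, on rows present in all 6 libraries. Genes were filtered by filterByExpr, scaled by TMM and tested with edgeR 4.0.16 in R 4.3.3 (quasi-likelihood, Benjamini-Hochberg over all genes tested, threshold 0.05). DESeq2 1.42.0 and limma 3.58.1 served as alternatives, and the edgeR steps were tested on simulated data. Ratios of summed counts carry exact 95% intervals. Exonic lengths and antisense overlaps come from GENCODE M21 models matched to the RefSeq rows (39 of 39), and positions from the RefSeq table of GRCm38.p6. Values in every library are given for members that were tested or had at least 10 counts in a library, and each list is given by its counts, its median and up to 4 members with the smallest p. Members and lists were chosen with earlier results of these data known. The values of some members of the gene family and of the lists are not reported here, though counts over all members include them.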

Additional observations from a re-analysis of the deposited data

How the results depend on the processing

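The count of Hox genes called lower in PT was 26 with TMM, RLE and upper-quartile factors, library totals, DESeq2, limma-voom, counts summed over transcripts and the replicate block, 29 without a count filter, 22 with a mean of at least 20 counts, 27 in the 5 complete libraries, 24 against a 2-fold minimum (added after the data were seen), and 26 to 27 with 1 library left out. The count called higher was 0 in each of these. Of the log2 fold changes of single members, the sign turned in 1 case, Hoxa6 with library totals (0.028), and the call of Hoxa7 was among those that ended against the 2-fold minimum. Whether the shared replicate numbers pair the libraries is not known, and correlations this weak cannot decide it. Deviations from the group means of same-numbered EL and PT libraries correlated at 0.0698, 0.0537 and 0.0128 across 12566 genes. Those of differently numbered libraries correlated at -0.0857 to 0.0531. EL replicates 1 and 2 correlated best with the PT library of the same number, and EL replicate 3 with PT replicate 2. The replicate block left the counts at 26 and 0. No alternative was run for Hox rows absent from EL replicate 1, since none of the 39 symbols depends on one. Depth limits the members with few PT counts: 18 of the 28 tested have at most 30 counts over the PT libraries, and for 5 of them 1 library moves the fitted value by over 1.5-fold.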

Other observations

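Mira, a noncoding RNA annotated between Hoxa6 and Hoxa7 and chosen after its values were seen, had 64 and 84 counts in EL replicates 2 and 3 and 41, 44 and 54 in PT replicates 1 to 3, so that its counts stayed countable in PT as those of Hoxa5, Hoxa6 and Hoxa7 did. These raw counts are not scaled for depth, and the PT libraries were larger, so they do not give the size of a change. Mira has no row in EL replicate 1 and lies just past the 3′ end of Hoxa7.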
